A study of Mus musculus with 27 samples.

Results

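The genes described here carry out antigen presentation on major histocompatibility complex (MHC) class II molecules. They were chosen by name, as 9 of the 23382 gene symbols in the deposited expression tables: H2-Aa, H2-Ab1, H2-Eb1, Cd74, Ciita, H2-DMa, H2-DMb1, H2-Oa and H2-Ob. The rule uses no measured value, though the genes were picked with earlier results of these data known. All 9 passed the filter on low expression. Each was read in RNA-seq, in the peak lists of 2 histone marks, and in enhanced reduced representation bisulfite sequencing (ERRBS), which measures DNA methylation where CpG sites are dense.

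All groups came from B220+ cells of the VavP-Bcl2 mouse model of B-cell lymphoma, in which a transgene drives the survival gene Bcl2 in blood cells, controls included. In the RNA-seq and ChIP-seq sets, haematopoietic stem cells from VavP-Bcl2 fetal liver (embryonic stage E13.5) received the empty retroviral vector or MSCV-SHMT2 and were injected into irradiated wild-type mice, and B220+ cells were taken from the spleen. The recipients keep their own blood-forming cells to an extent the labels do not give, and the labels give no age for the recipients. The ERRBS labels give the same model without the transplant. Their titles name control or SHMT2, but the transfection labels of SHMT2 replicates 2 and 3 read SHMT3 and SHMT4. RNA-seq compared 3 vector with 3 SHMT2 libraries, H3K4me1 ChIP-seq 2 with 2, H3K4me3 ChIP-seq 2 with 3, and ERRBS 3 with 3. The labels do not state whether the libraries of 1 group are separate animals. The p-values then cover only how far these samples spread, which may be a technical spread. SHMT2 is the mitochondrial serine hydroxymethyltransferase, which feeds 1-carbon units into folate metabolism. The study's title names epigenetic silencing, and the comparison of both groups addresses methylation, histone marks and expression.

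B cells show peptides from swallowed antigen to CD4+ T cells on class II molecules, heterodimers of an α and a β chain. H2-Aa and H2-Ab1 encode the chains of I-A, and H2-Eb1 encodes the β chain of I-E. The invariant chain Cd74 fills the peptide groove until the heterodimer H2-DM (H2-DMa, H2-DMb1) exchanges its remnant for antigen peptide, and H2-O (H2-Oa, H2-Ob), found mainly in B cells, restrains H2-DM. Ciita is the coactivator on which transcription of these genes depends. It does not bind DNA itself, and is recruited by factors on the paired X and Y boxes upstream of class II genes.

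Those boxes could be read in the letters upstream of the genes, and they are shown because the same pair recurs across genes of different roles. The RefSeq promoter table (GRCm38.p6, the build also called mm10) had entries for 6 of the 9 genes, each from 250 bases before to 50 bases after an annotated start. The search was for GNAAC, the core of the X box, followed after 20 to 32 bases by GATTGG, the Y box, whose reverse complement holds CCAAT. The motifs of a pair do not overlap. The pair, on the strand of the gene, was found in H2-Aa, H2-Eb1, H2-DMb1, H2-Oa and H2-Ob, and in neither entry of H2-DMa. Neither H2-DMa entry reaches the H3K4me3 peak further inside that gene, described below, and the letters there were not searched. Outside the 9 genes, the entry of H2-Eb2 held the pair on its strand. The entry of H2-DMb2, the neighbouring copy of H2-DMb1, held it on neither strand. Capitals mark the GNAAC and GATTGG letters, and each stretch runs 5′ to 3′ toward the gene.
H2-Aa: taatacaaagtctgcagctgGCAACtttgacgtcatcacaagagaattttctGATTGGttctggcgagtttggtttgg
H2-Eb1: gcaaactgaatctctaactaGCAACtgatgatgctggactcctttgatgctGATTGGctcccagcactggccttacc
H2-DMb1: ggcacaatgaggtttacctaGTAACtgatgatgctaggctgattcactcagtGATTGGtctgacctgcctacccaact
H2-Oa: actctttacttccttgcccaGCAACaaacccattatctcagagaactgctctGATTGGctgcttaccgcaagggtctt
H2-Ob: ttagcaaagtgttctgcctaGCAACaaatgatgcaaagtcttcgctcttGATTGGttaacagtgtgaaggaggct
The H2-Aa stretch lies at chr17:34287847-34287924 on the minus strand. The other stretches lie on the plus strand, at chr17:34305756-34305832 for H2-Eb1, chr17:34153077-34153154 for H2-DMb1, chr17:34092283-34092360 for H2-Oa and chr17:34238798-34238872 for H2-Ob. The X core reads GTAAC in H2-DMb1 and GCAAC in the other four. The gap between the boxes was 27 bases in H2-Aa, H2-DMb1 and H2-Oa, 26 in H2-Eb1 and 24 in H2-Ob. The X core began 76 (H2-Oa) to 94 (H2-DMb1) bases before the start. Of all 32851 promoter windows in the table, 0.39% hold the pair on the strand of their gene and 0.755% on either strand, while GATTGG alone is in 16.1% and GNAAC alone in 84.8% (either strand). A match is a description of letters and not of binding.

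Marker levels of other cell types differed among the vector libraries as well as between the groups. In SHMT2 the mean log2 level was lower for all 9 erythroid and 12 of 13 macrophage markers, none past the limma threshold. The 9 erythroid markers summed to 68.2, 4676 and 898 TPM in vector replicates 1, 2 and 3 and to 60.5 to 168 TPM in the SHMT2 libraries. The 13 macrophage markers came to 186, 895 and 902 TPM in these vector libraries and to 252 to 322 TPM in SHMT2. Macrophages and dendritic cells also carry class II. The dendritic cell markers (10 genes) summed to 79.7 to 173 TPM in vector and 82.2 to 127 in SHMT2, and no gene of these 3 lists was listed at 0 in every library. B-cell identity was plain in all libraries, with the antigen-receptor subunit Cd79a at 522 to 774 TPM and the 9 B-cell markers summing to 6543 to 9219 TPM. Shmt2 itself was at 244, 345 and 259 TPM in the SHMT2 libraries and lower in each vector library, at 174, 223 and 157 TPM. RNA-seq depth is unknown, since TPM keep none.

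The class II genes were among the most abundant transcripts of these cells and did not pass the test for a difference between SHMT2 and vector. By the mean over the 6 libraries they lay between the 94.9th percentile (H2-DMa) and the 99.1st (H2-Ob) of the 11117 genes tested. limma on log2(TPM + 1), with Benjamini-Hochberg adjustment over all genes, called 0 of the 9 at an adjusted p under 0.05. The same fit called 0 of 11117 genes (0%). At an unadjusted p under 0.05 there were 0 of the 9 genes, against 16.7% of all genes. The log2 fold changes (SHMT2 minus vector) were positive in 8 of 9, against 53.2% of all genes, with a median of 0.19 against 0.02 for all genes tested. That share counts tested genes of any level, not genes as abundant as these. In 8 of the 9 the lowest library was the same, vector replicate 2, so their signs are not independent.

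Among the peptide-binding chains, H2-Ab1 was the most abundant, at 1382, 917 and 1047 TPM in vector replicates 1, 2 and 3 and 1272, 1316 and 1366 in SHMT2. The SHMT2 values lay inside the vector range, with a log2 fold change of 0.26 (95% interval -0.13 to 0.65). H2-Aa, its partner chain, had 512, 359 and 565 TPM in vector and 570, 532 and 547 in SHMT2. Vector replicate 2 was the low library, and the groups overlapped (0.22 on the log2 scale, interval -0.20 to 0.65). H2-Eb1 stood at 564, 413 and 501 TPM in vector against 575, 551 and 558 in SHMT2. Here too vector replicate 2 was lowest and vector replicate 1 lay among the SHMT2 libraries (0.20, interval -0.11 to 0.50). The pseudogene H2-Ea-ps, which stands in for the I-E α chain in the table, was at 0.0123 to 0.0688 TPM in the 6 libraries, far under its β-chain neighbour. The limma adjusted p was 0.431 for H2-Ab1, 0.527 for H2-Aa and 0.445 for H2-Eb1.

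The invariant chain Cd74 was nearly as abundant as H2-Ab1, at 1281, 966 and 999 TPM in vector and 1233, 1154 and 1205 in SHMT2. Its ratio to H2-Ab1 stayed between 0.877 and 1.05 in the 6 libraries. Vector replicate 1 had the highest Cd74 and vector replicate 2 the lowest, so the groups overlapped. Cd74 gave a log2 fold change of 0.16 (interval -0.15 to 0.47, limma adjusted p 0.541).

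Ciita, the coactivator, varied most of the 9. Its TPM were 807, 442 and 686 in vector and 604, 752 and 712 in SHMT2. The highest library was 1.83 times the lowest, and both of these were vector libraries. Its log2 fold change was 0.13 with the widest interval of the 9, -0.43 to 0.70 (limma adjusted p 0.789). In SHMT2 replicate 1, Ciita, H2-Ab1, H2-DMa and H2-Ob were the lowest of their group and the other five genes the highest.

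The peptide exchange factor H2-DM gave opposite signs for its chains. H2-DMa had 334, 217 and 282 TPM in vector and 284, 301 and 319 in SHMT2, overlapping (0.14, interval -0.26 to 0.54, limma adjusted p 0.688). H2-DMb1 had 550, 486 and 523 TPM in vector and 493, 468 and 468 in SHMT2, and was the single gene of the 9 with a negative log2 fold change, -0.12 (interval -0.32 to 0.07, limma adjusted p 0.459). It was also the steadiest, with a highest to lowest ratio of 1.17 against 1.33 to 1.83 for the others, and the only one whose lowest library was not vector replicate 2. H2-DMb2, a neighbouring copy of H2-DMb1, had 327, 230 and 283 TPM in vector and 326, 329 and 358 in SHMT2, the pattern of the other class II genes. The counting could split reads between these near-identical copies, so the level of each is uncertain.

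The H2-DM inhibitor H2-O included the one gene of the 9 whose groups did not overlap. H2-Ob had 1401, 921 and 1227 TPM in vector and 1414, 1465 and 1462 in SHMT2, so every SHMT2 library was above every vector library, the closest pair by little. Its log2 fold change was 0.31 (interval -0.08 to 0.70). The limma adjusted p was 0.377, and the exact two-sided permutation p was 0.1, the lowest possible with 3 libraries against 3. Such separation with SHMT2 higher was seen in 16.9% of all genes tested, so 1 in 9 is near the background. H2-Oa had 475, 338 and 470 TPM in vector and 509, 460 and 482 in SHMT2, overlapping (0.19, interval -0.17 to 0.56, limma adjusted p 0.524). The ratio of H2-DMb1 to H2-Ob was 0.393, 0.528 and 0.426 in the vector libraries against 0.349, 0.320 and 0.320 in SHMT2. Those ranges did not overlap, a pair picked after the values were seen and therefore not tested. Of the ratios between class II genes computed here, this was the only one with the groups apart. No share over other gene pairs was computed. The ratio sets the only gene of the 9 with a negative log2 fold change against the gene with the largest.

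**Figure D1:**
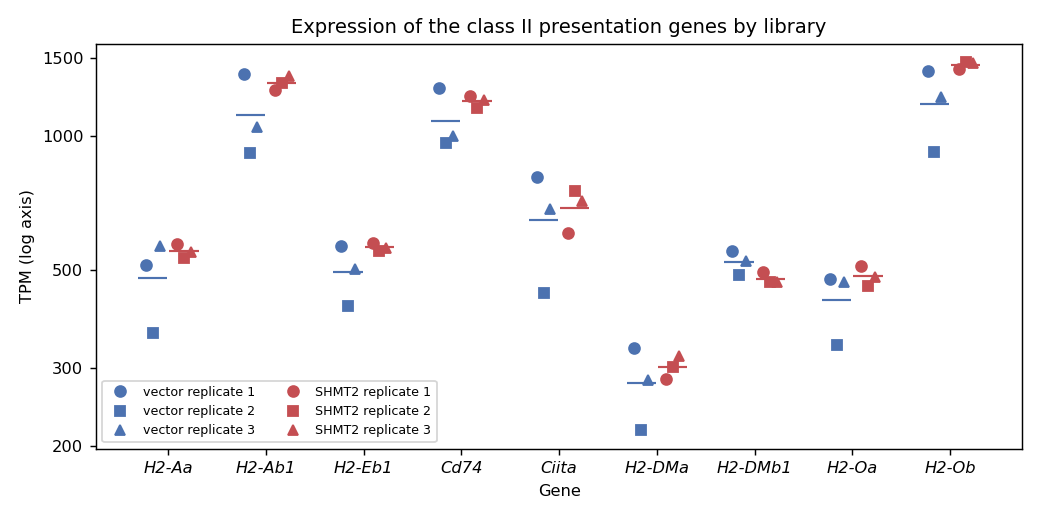
TPM (log axis) of the 9 genes in each RNA-seq library, vector in blue and SHMT2 in red, with a marker shape per replicate and a line at each group mean. Vector replicate 2 (blue square) was the lowest library in 8 of 9 genes, and H2-Ob alone had no overlap between groups.

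Ordered by mean TPM, which is scaled for transcript length, the genes ran H2-Ob (1315), H2-Ab1 (1217), Cd74 (1140), Ciita (667), H2-Eb1 (527), H2-Aa (514), H2-DMb1 (498), H2-Oa (456) and H2-DMa (289). Neighbours in that order had overlapping ranges over the 6 libraries, except at 2 steps, from Cd74 to Ciita and from H2-Oa to H2-DMa. H2-Ob was above H2-Ab1 in all 6 libraries even so, and Ciita above H2-Eb1 in all 6. The H2-O β chain was 2.61 to 3.18 times its α chain, H2-DMb1 1.47 to 2.24 times H2-DMa, and H2-Ab1 1.85 to 2.70 times H2-Aa. Summed, the 9 genes made up 7305, 5060 and 6300 TPM in vector and 6953, 7000 and 7120 in SHMT2.

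The class II values spread more widely within the vector group than between the groups. Vector replicate 2 was the lowest library in 8 of the 9 genes, against 27.2% of all genes tested and 36% of the 833 genes averaging at least 200 TPM. Its median deviation from the 6-library mean over the 9 genes was -0.40 on the log2 scale, against 0.15 and -0.03 in vector replicates 1 and 3 and 0.07 to 0.12 in SHMT2. The same library had the highest erythroid marker level, a mean log2 of 8.26 against 2.52 to 5.90 in the other 5. In bulk samples, fewer cells of a type and less RNA per cell cannot be told apart. The 9 B-cell markers were also higher in SHMT2 on average, all 9 of them, with a median log2 fold change of 0.34 and none past the threshold, and T-cell markers summed to only 10.5 to 27.9 TPM. The part of such shifts in the class II difference was not tested. The fits given next describe how the class II values depend on single libraries and on marker level. Erythroid and macrophage levels were highest in vector replicates 2 and 3, so these fits cannot fully separate marker level from group.

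Without vector replicate 2 the median log2 fold change of the 9 genes was 0.03, with 6 higher and 3 lower, and Ciita (-0.12) and H2-DMa (-0.03) had turned sign. With the erythroid and macrophage marker level as a covariate the median was 0.0031, with 5 higher and 4 lower. Without vector replicates 2 and 3 together it was -0.07, with 3 higher and 6 lower, the lone vector library being assumed to vary like the SHMT2 ones. Without vector replicate 1, which leaves the vector libraries of high erythroid and macrophage level, the median was 0.29, and 850 of 11136 genes (7.63%) passed. None of the 9 was among those 850, with limma adjusted p from 0.059 to 0.555. H2-DMb1 kept its negative sign in each of these fits.

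**Figure D2:**
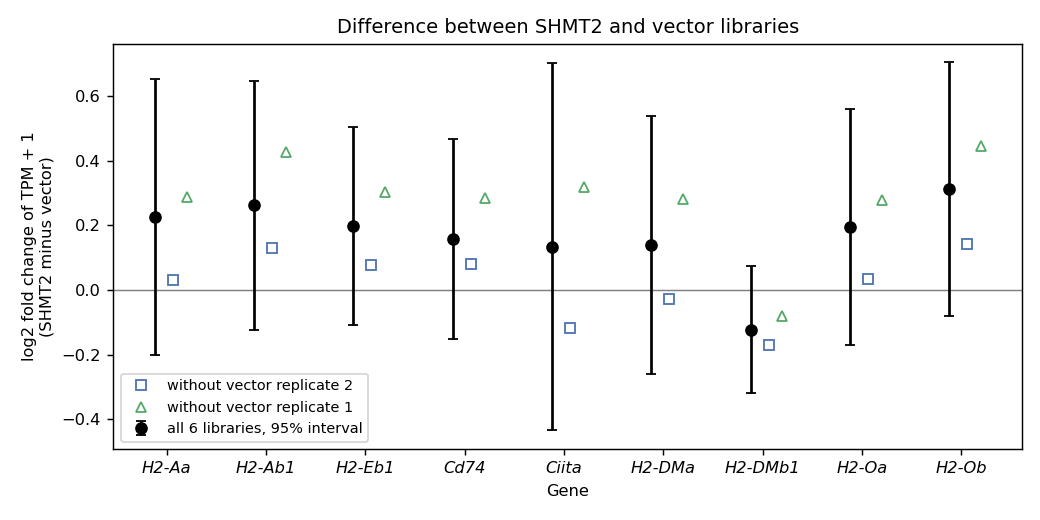
Log2 fold change of TPM + 1 (SHMT2 minus vector) for each gene with all 6 libraries (black, bars are 95% intervals from limma) and without vector replicate 2 (blue squares) or replicate 1 (green triangles). Every interval includes 0, and the values without replicate 2 lie below those with all libraries in all 9 genes.

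**Figure D3:**
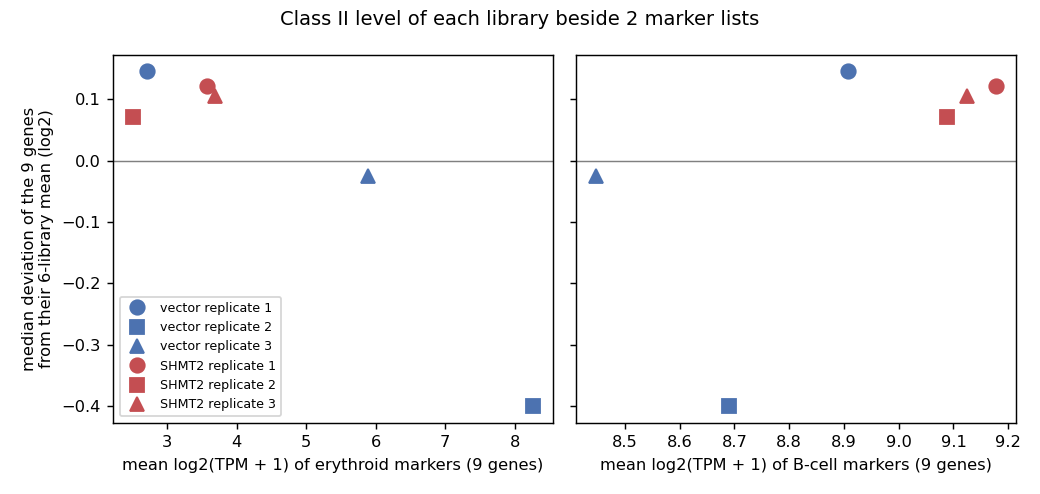
Median deviation of the 9 genes from their 6-library mean (log2) against the mean log2(TPM + 1) of 9 erythroid markers (left) and 9 B-cell markers (right), 1 point per library. Vector replicate 2, at -0.40, had the highest erythroid level, 8.26, and a B-cell level of 8.69, above the 8.45 of vector replicate 3.

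The factors that drive class II transcription were compared as a list of 21 genes. None passed the limma threshold, 15 were higher and 6 lower in SHMT2, and the median log2 fold change was 0.12. Crebbp, a histone acetyltransferase that coactivates with Ciita, was at 158, 134 and 137 TPM in vector and 111, 116 and 104 in SHMT2, lower in every SHMT2 library (-0.37, limma adjusted p 0.206). Prdm1, a repressor of Ciita in plasma cells, was also lower in each, at 86.9, 85.5 and 100.1 TPM against 46.2, 75.4 and 62.6 (-0.58, limma adjusted p 0.227). Sfpi1, the gene of the myeloid and B-cell factor PU.1, was higher in each SHMT2 library (22.8 ± 1.44 against 28.2 ± 4.04 TPM, mean ± SD, n = 3 each). Across all genes tested the groups were apart with SHMT2 lower in 8.26%, and in either direction in 25.1%, against 3 of these 21. Irf8, an interferon regulatory factor, had 1340, 930 and 870 TPM in vector against 1264, 1369 and 1491 in SHMT2, and the groups overlapped. The X box subunits Rfx5 (104 ± 25.0 and 110 ± 3.06 TPM), Rfxap and Rfxank overlapped too.

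In the list of 14 antigen-processing genes, 7 were higher and 7 lower, none passed, and the median was 0.02. Ctsh, an aminopeptidase of lysosomes, was the most abundant at 7852, 4664 and 6297 TPM in vector and 8093, 7226 and 8186 in SHMT2, with vector replicate 2 again lowest. Ap1s1, a subunit of a clathrin adaptor, was higher in every SHMT2 library (9.17 ± 0.552 against 12.5 ± 1.23 TPM, limma adjusted p 0.206). It was the 1 gene of the 14 with the groups apart and SHMT2 higher, against 16.9% of all genes tested. Ifi30, the thiol reductase that opens antigen disulphides, overlapped (117 ± 19.7 and 143 ± 11.7 TPM), as did the lysosomal membrane protein Lamp1 (273 ± 24.9 and 263 ± 21.0 TPM).

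Of the 14 accessory and turnover genes 13 were tested, with 5 higher, 8 lower, none past the threshold and a median of -0.11. Cd40, the receptor for T-cell help, was at 39.3, 25.0 and 23.5 TPM in vector and 51.2, 42.0 and 44.5 in SHMT2 (0.67, limma adjusted p 0.219). Cd44 was lower in every SHMT2 library (122 ± 26.8 against 88.6 ± 0.847 TPM, limma adjusted p 0.265). Mif, the cytokine that binds Cd74, was higher in each (5.74 ± 2.82 against 9.34 ± 0.440 TPM, limma adjusted p 0.291). Of the 13 genes, 2 were apart with SHMT2 higher and 1 with SHMT2 lower, against 16.9% and 8.26% of all genes. Those counts are near the background. H2-Eb2 overlapped, at 136, 76.6 and 139 TPM in vector and 121, 127 and 133 in SHMT2. Without vector replicate 1, and named after their values were seen, Irf8, Irf1, Ctsd, Ctsb, Cd40 and Mif were among the genes of these 3 lists that passed, and 11 of 13 macrophage and 7 of 9 erythroid markers passed with them, against 7.63% of all genes.

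Genes whose levels ran most like the class II core (the mean log2 level of H2-Aa, H2-Ab1, H2-Eb1 and Cd74) were sought among 7244 genes averaging at least 10 TPM. The closest by Pearson r over the 6 libraries were Ntan1, Hmga2-ps1, Marcksl1, Ctsh and Eif2a (r from 0.991 to 0.994). The most opposite were Cul4a, Mgat4b, Taf3, March8 and Asb1 (r from -0.997 to -0.999). Vector replicate 2 was the lowest library for the first 5 and the highest for the last 5. March8, a membrane ubiquitin ligase that can remove surface proteins, had 108 TPM in that library against 10.2 to 28.5 in the others. The r values describe libraries that share that one extreme, and 336 genes had r over 0.9.

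H3K4me3, the mark of active promoters, was present as a MACS2 narrow peak at all 9 genes in all 5 libraries, against 59.5% of 21631 protein-coding genes. Such shares, here and below, count genes of any expression level, and none was computed among genes as abundant as these 9. Fold enrichment and −log10 q-value of a peak are the authors' values, used here only to describe peaks within a list. The widest H3K4me3 peak at Cd74 began within 100 bases of the lower-coordinate edge of the gene and spanned 4502 and 4673 bases in vector and 4913, 4854 and 4772 in SHMT2. At H2-Eb1 it spanned 4692 to 5604 bases, and at H2-Aa 3259 to 4519, both lying mostly within the gene from its start. Those of H2-Ob (891 to 1385 bases) and H2-Oa (1159 to 2008) were shorter. In each library the widest Cd74, H2-Eb1 and Ciita peaks were at or above the 99.7th percentile of peak width.

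The position of these peaks relative to the boxes printed above could be read in 5 genes. At H2-Oa the whole stretch from X core to Y box lay under the H3K4me3 peak in all 5 libraries. At the other four genes it did so in some libraries only. In H2-Aa it was covered in full in SHMT2 replicates 4 and 5, by 47.4% and 15.8% in vector replicates 4 and 6, and by 0% in SHMT2 replicate 6, where the peak began 42 bases before the start. In H2-Eb1 the covered share was 0% and 100% in vector replicates 4 and 6, and 0%, 100% and 32.4% in SHMT2 replicates 4, 5 and 6. The edge of the peak thus fell at the boxes in several libraries of both groups, with no order by group.

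Ciita carried its H3K4me3 away from the annotated edge. The widest peak began 6919 to 7457 bases inside the lower-coordinate edge and ended 11565 to 12477 bases inside, the same interval in all 5 libraries to within 1 kb at either end. The strongest peak at H2-DMa lay in 3 libraries (both vector libraries and SHMT2 replicate 6) 15841 to 18168 bases inside the lower edge, and neither RefSeq start in the promoter table lies there. H2-DMa overlaps Brd2 at its lower edge, so peaks there cannot be told apart between the genes.

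H3K4me3 covered a larger share of the gene and its 1 kb flanks in every SHMT2 than in every vector library at 2 of 9 genes, near the 33.1% seen over all genes with a peak. At H2-Oa the shares were 35.9% and 34.4% in the vector libraries against 54.0%, 44.7% and 37.5% in SHMT2. At Cd74 they were 47.1% and 49.6% against 54.1%, 54.6% and 49.9%, the closest pair being nearly equal. The other seven overlapped. The count was 7 without vector replicate 6, where the share over all genes was 62.7%, and 4 without SHMT2 replicate 6, where it was 59.4%. With 2 against 3 libraries the smallest exact p is 0.1, and no test was made.

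H3K4me1, a mark of enhancers and of the flanks of active promoters, also had a peak at all 9 genes in all 4 libraries. Among protein-coding genes of any expression level the share was 54.6%. Its coverage of the gene and flanks was larger in both SHMT2 libraries than in both vector libraries at 8 of 9 genes. Over all genes with a peak this was so in 80.4%, so the count is near the background. The SHMT2 lists held more peaks in all, 48993 and 52056 against 37274 and 33119, and covered 114 and 118 Mb against 77.5 and 62.6 Mb.

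H2-Oa had the largest H3K4me1 contrast of the 9 in percentage points, and Cd74 in ratio (2.38 against 2.02 for H2-Oa). Peaks covered 58.6% and 40.2% of it in vector replicates 4 and 5 and 100% in both SHMT2 libraries, where a single broad peak of 16950 and 16823 bases ran across the whole gene. In the vector libraries its widest peaks were 2062 and 1275 bases. H2-Ob had 53.1% and 31.4% in vector against 83.4% and 83.5% in SHMT2, and H2-Aa 51.8% and 30.4% against 76.4% and 78.5%. Cd74 had the lowest coverage, 25.9% and 14.0% in vector and 49.1% and 45.8% in SHMT2. Ciita was the exception, at 71.3% and 55.6% against 70.5% and 78.7%, with a peak of 32046, 32743 and 34781 bases in vector replicate 4 and in SHMT2 replicates 4 and 5. In the fourth library, vector replicate 5, the widest Ciita peak was 16670 bases.

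The 7 genes on chromosome 17 lie in 1 stretch, chr17:34092379-34316674, from H2-Oa to H2-Eb1. H3K4me1 peaks covered 53.3% and 42.0% of it in vector and 71.2% and 70.6% in SHMT2, while on the whole chromosome they covered 3.54 and 2.93 Mb in vector and 5.25 and 5.36 Mb in SHMT2. H3K4me3 covered 22.6% and 26.8% in vector and 29.0%, 27.2% and 24.9% in SHMT2. The groups overlapped there. At a −log10 q-value of at least 5, an H3K4me1 peak in every library remained at 2 of the 9 genes, against 5.64% of protein-coding genes, and an H3K4me3 peak at all 9, against 58.8%.

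**Figure D4:**
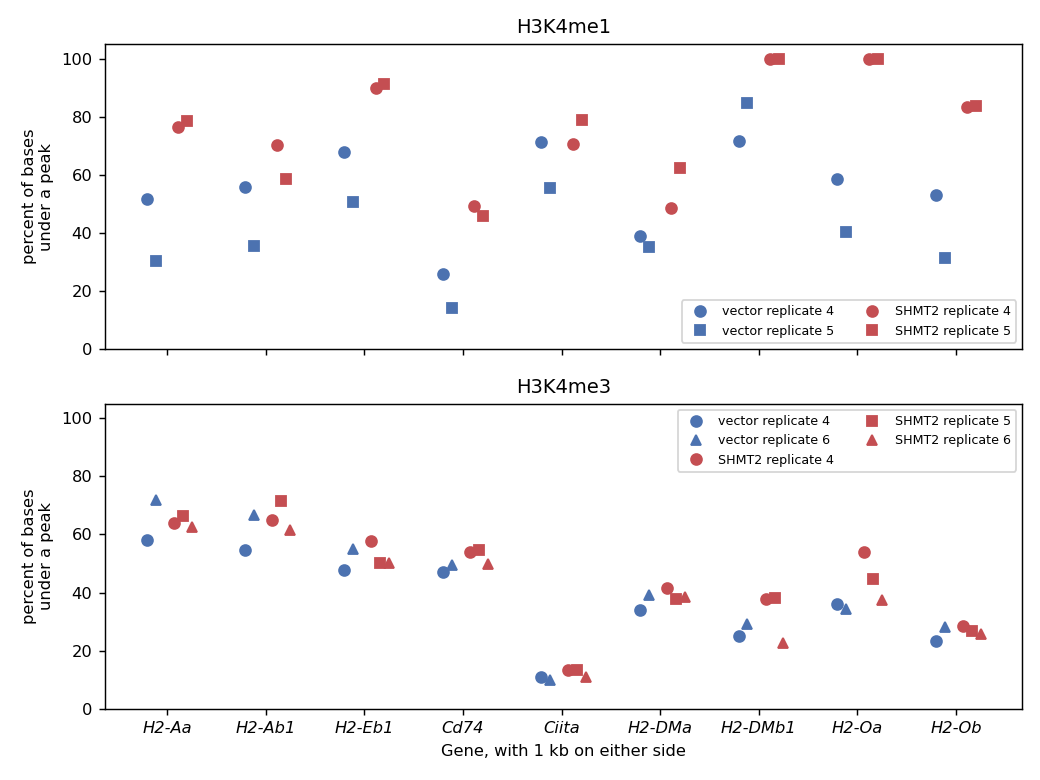
Percent of bases under a peak across each gene and 1 kb on either side, for H3K4me1 (top) and H3K4me3 (bottom), 1 point per library. For H3K4me1 both SHMT2 libraries lie above both vector libraries except at Ciita, and for H3K4me3 the groups overlap except at Cd74 and H2-Oa.

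DNA methylation could be read at few of these genes, since ERRBS covers CpG-rich sequence. Within 1 kb of the gene, H2-Aa had no covered cytosine in any library, H2-Ob had 3 covered in all 6 libraries, H2-Eb1 and Cd74 had 5 each, H2-DMb1 6, H2-Oa 13, Ciita 25, H2-Ab1 93 and H2-DMa 146. The 1 kb around the gene start named by the promoter table held none in H2-Aa, H2-Eb1, H2-DMb1, H2-Oa or H2-Ob that was covered in all 6 libraries, so methylation at the printed boxes was not measured. Windows of 1 kb on either side of a gene end were tested where they held at least 3 cytosines covered by at least 10 calls in all 6 libraries. That left 5 windows at 4 of the 9 genes. A binomial regression on methylated and total calls, its overdispersion moderated with limma, called 0 of these 5 and 0 of 16202 windows (0%) at an adjusted p under 0.05 and 10 points. At an unadjusted p under 0.05 there were 554 windows (3.42%).

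The largest difference was at the downstream end of H2-Oa. Its 13 cytosines were methylated in 55.9%, 54.9% and 48.4% of calls in vector replicates 1, 2 and 3 and in 70.4%, 82.0% and 64.3% in SHMT2, from 891 to 1252 calls a library. Every SHMT2 library was above every vector library, as in 4.1% of all windows tested. The difference was 19.2 percentage points. The regression gave an unadjusted p of 0.011, and the exact permutation test gave 0.1, the lowest p it can reach here. The adjusted p was 0.881, and 0.547 to 0.985 over the alternatives, so the window did not pass. A difference of 10 points or more in either direction was seen in 4.62% of windows.

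Those 13 cytosines fell in 2 clusters. Near the end of the gene, 9 lay at chr17:34094707-34094879, within H2-Oa and also within the lncRNA gene BC051537. There the levels were 46.1%, 44.5% and 35.7% in vector and 64.6%, 81.2% and 51.5% in SHMT2, and single cytosines differed by 15.1 to 44.6 points. The groups did not overlap at 7 of the 9, SHMT2 being higher, against 5.34% of cytosines of intermediate level. Neighbouring cytosines share reads, so the 9 are not independent. SHMT2 replicate 2 was the highest library at all 9, and without it the difference over the 13 was 14.3 points. The other 4 cytosines, past the gene at chr17:34096115-34096199, were at 87.5% to 92.1% in vector and 85.2% to 92.2% in SHMT2, and overlapped.

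Ciita had 5 cytosines under its H3K4me3 peak, 8298 to 8400 bases inside the lower edge at chr16:10488312-10488414. They were methylated in 14.5%, 23.5% and 14.7% of calls in the vector libraries and in 13.7%, 2.33% and 22.7% in SHMT2 (380 to 628 calls). The groups overlapped, and SHMT2 replicate 2 was the lowest library at all 5. Outside the H3K4me3 peaks, 20 other Ciita cytosines were at 74.1% to 82.4% in vector and 72.9% to 81.7% in SHMT2. The groups did not overlap at 3 of the 20, SHMT2 being lower, against 4.25% of cytosines of intermediate level, and at none of the 20 with SHMT2 higher. Those at chr16:10498525 and chr16:10498562 had 10 to 27 calls a library, and such neighbours can share reads, so they are not independent. At the far end of the gene, which overlaps Dexi, 3 cytosines gave 75.9%, 84.8% and 73.3% in vector and 73.8%, 42.6% and 88.2% in SHMT2, from 42 to 87 calls. That window had an adjusted p of 0.918, and without SHMT2 replicate 2 its difference turned from -9.77 to 3.04 points.

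Under H3K4me3 peaks of all 5 libraries, methylation was low at H2-Ab1, low at most but not all cytosines of H2-DMa, and mixed at Cd74. H2-Ab1 had 71 cytosines under peaks of all 5 libraries, at 0.18%, 0.50% and 0.28% in vector and 0.14%, 0.20% and 0.04% in SHMT2, from 4642 to 7677 calls. Under a peak of 1 library only, chr17:34268083 in H2-Ab1 had means of 43.5% in vector and 44.2% in SHMT2. Likewise, chr17:34268271 had 82.5% and 62.6%, with 16 to 25 calls a library. There every SHMT2 library was below every vector library, against 4.25% of cytosines of intermediate level. At H2-DMa 106 of 110 such cytosines, many in the part shared with Brd2, had group means of at most 8.85%. The other 4, at chr17:34128988-34129048, had group means of 52.9% to 69.0% although they too lay under peaks of all 5 libraries. A further 26 outside peaks, at the upper end of H2-DMa, were at 85.2% to 91.9%. Cd74 had 5 cytosines under H3K4me3, split by position. The 2 nearest the lower edge had group means of 0.49% to 2.96%. The 3 between 4287 and 4310 bases inside that edge were at 19.8%, 52.8% and 22.5% in vector and 34.7%, 8.55% and 42.9% in SHMT2, with 12 to 41 calls a cytosine, and overlapped. The end of H2-DMb1, under no H3K4me3 peak, was at 79.9%, 78.0% and 79.7% in vector and 83.5%, 65.7% and 83.9% in SHMT2. SHMT2 replicate 2 was again the library that differed, and the window had an adjusted p of 0.948. Read over the whole gene with its flanks, 8 genes could be tested, and 0 of them and 0 of 16011 spans passed.

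**Figure D5:**
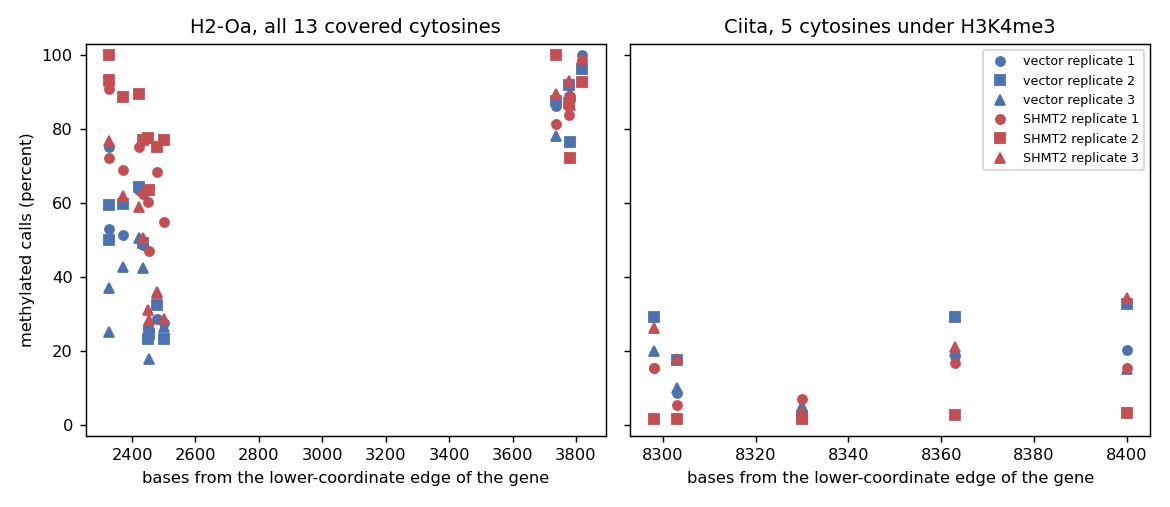
Percent of methylated calls at single cytosines against distance from the lower-coordinate edge of the gene, at H2-Oa (left) and at the Ciita cytosines under H3K4me3 (right), 1 marker per library. SHMT2 replicate 2 (red square) is highest at all 9 cytosines of the first H2-Oa cluster and lowest at all 5 Ciita cytosines.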

How the data were processed

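The series holds RNA-seq, ChIP-seq and ERRBS libraries, grouped here by sample title. 6 input libraries were not analysed here. In ERRBS the transfection labels of SHMT2 replicates 2 and 3 are SHMT3 and SHMT4. Their titles decided the group. The 9 genes and all gene lists were chosen with earlier results of these data known. Genes named from the lists were the 3 of smallest limma p and the 2 of highest mean TPM per list, except where stated, and some are not reported here.

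The authors deposited TPM per gene symbol and library, after STAR alignment (mm10), per the submitters' processing notes. How TPM were made from them, and any use of strand, are not given in the sources used here. All deposited peak lists were called per library with MACS2 on BWA alignments, per the submitters' processing notes. In them the authors give a score, a fold enrichment (a ratio) and −log10 p- and q-values. Which control served in peak calling is unknown here. Per the file headers, each deposited ERRBS row holds a cytosine's coverage (a count of calls) and its percent of C and of T calls, after Bismark and Bowtie2 per the submitters' processing notes. Mean coverage was 63.0 to 71.6 calls, and no deposited cytosine had under 10.

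Computed here: limma 3.58.1 (R 4.3.3, trend) on log2(TPM + 1) for genes averaging at least 1 TPM (fold changes are on this log2 scale), and exact two-sided permutation tests. The ERRBS windows were fitted by binomial regression with limma's variance squeezing. The limma fit and the regression were also run on simulated data drawn without a shared library effect. Those runs cannot show how the fits behave with an extreme library such as vector replicate 2. Peak overlap needed 1 base, within 1 kb of the gene, and was not tested. Gene positions and promoter letters came from RefSeq (GRCm38.p6). Alternatives covered the pseudocount, filters, scaling, coverage, peak threshold, the replicate block and each library left out.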

Additional observations from a re-analysis of the deposited data

How the results depend on the processing

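Of 322 alternative values for 31 results, 293 kept their direction and side of the threshold, 20 turned sign and 9 counts or medians moved. No class II gene was called under any of the 13 RNA-seq alternatives, and no window under any ERRBS alternative. With each library left out in turn, genes called ranged from 0 to 850 (850 without vector replicate 1), the class II median from 0.033 to 0.29, Ciita from -0.12 to 0.32 and H2-DMa from -0.027 to 0.28 (log2). With the erythroid and macrophage marker covariate 1 gene was called, the class II median was 0.0031, and Cd74 (-0.025), Ciita (-0.21) and H2-DMa (-0.11) turned negative. Without vector replicates 2 and 3 together 6 genes were called, the median was -0.069, and H2-Ab1 (-0.069), H2-Eb1 (-0.0073), Cd74 (-0.10), Ciita (-0.23) and H2-DMa (-0.15) turned negative. In ERRBS, leaving out libraries in turn gave differences of -1.52 to 1.85 points at the H2-DMa upper end (0.052 at a coverage of at least 20), -19.8 to 3.04 at the Ciita end, -4.55 to 4.51 at H2-DMb1 (end and span), -2.71 to 1.76 over H2-Ob, -6.65 to 2.85 over Cd74 and -4.95 to 1.27 over Ciita. H3K4me1 peaks in every library were kept by 2 genes at a −log10 q-value of at least 5, and the count of genes with wider H3K4me3 in SHMT2 ranged from 2 to 7. The cause of these shifts was not tested.

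With the replicate number as a replicate block, limma called 0 genes, with 1180 at an unadjusted p under 0.05 and a class II median of 0.19, and ERRBS called 0 windows. The labels do not say that equal numbers mark a shared animal or day, so the numbers were not taken as pairs. Deviations of same-numbered libraries from their group means had r of -0.42, -0.33 and -0.06 in RNA-seq and -0.05, -0.23 and -0.06 in ERRBS. With 3 libraries a group, deviations from the group mean are tied to one another, so these r cannot settle pairing. No paired analysis was made for the peaks, because their results are descriptions and no test was made on them. RNA-seq depth is unknown, and ERRBS windows of 3 to 6 cytosines rest on few calls, with precision limited by counting as well as by 3 libraries a group.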
